A study of Rattus norvegicus with 31 samples.

Results

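Fatty acid oxidation and PPAR target genes were followed in the kidney cortex and colon of the rat. The set was a list of 30 gene symbols, and its members were the rows of the deposited count table that carry those symbols. Of the 30, 29 had a row among 20207 genes, and Eci2 was not analysed here. The rule matches symbols and uses no measured value, though the list was drawn up with earlier results of these data known.

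The study profiled RNA in 31 libraries from 3 groups of rats. NC was the normal control, HS was a model fed high salt, and CAL was fed high salt and given calcitriol, the hormonal form of vitamin D. HS and CAL thus share the salt load, and calcitriol was not given without it. NC is represented by 5 libraries in each tissue, HS by 4 in the cortex and 5 in the colon, and CAL by 6 in each. Strain, sex, age, dose and duration are not given in the sources used here, nor whether each library is a separate animal, so a p-value measures the spread between these libraries, which may be technical. The libraries held 289529 to 2265164 counts in the cortex and 267976 to 918820 counts in the colon.

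Mitochondria break down fatty acids by beta-oxidation. A long-chain fatty acid is joined to coenzyme A, carried across the inner membrane as a carnitine ester, and then shortened in a repeated spiral of dehydrogenation, hydration, a second dehydrogenation and thiolysis. Electrons from the first step leave through the electron transfer flavoprotein. Peroxisomes run a related pathway on very long chains. The nuclear receptor PPARα, encoded by Ppara, binds fatty acids and raises transcription of many of these enzymes. The proximal tubule, which fills most of the cortex, takes much of its energy from fatty acids, while the surface cells of the colon oxidise short-chain fatty acids made by gut bacteria.

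Levels are CPM, the counts of a gene relative to the library's total after scaling by the trimmed mean method, and changes are log2 fold changes with their standard error (SE). Each was tested with edgeR's quasi-likelihood test over all genes of the tissue. A gene is said to have risen or fallen, or to have changed, when its Benjamini-Hochberg adjusted p was under 0.05. A gene said not to have changed missed that threshold, which does not show that its level stayed the same. The filter on low counts passed 25 members in the cortex and 23 in the colon, and all 23 passed in both. Echs1, Ppara, Pdk4 and Fabp1 passed in neither tissue, and Ehhadh and Acot1 did not pass in the colon. Levels of different genes are not compared, because transcript lengths were not used here. In bulk tissue, fewer cells of a type and less RNA per cell cannot be told apart.

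The labelled tissues carried their own markers. A list of 15 proximal tubule genes summed to between 20732 and 27622 CPM in every cortex library, and a list of 11 surface colonocyte genes summed to between 8019 and 19679 CPM in every colon library. One colon library stood apart: in HS replicate 3 the small-bowel enterocyte genes summed to 17893 CPM, against 184 CPM or less in every other colon library. For colon members named with their values, the change without it is given too. The erythrocyte list also followed the groups in the cortex, with sums of 3887 to 19831 CPM in NC, 1005 to 1801 CPM in HS and 3657 to 6834 CPM in CAL, and 6 of its 7 tested genes fell in HS against NC. It ran lower in HS in the colon as well, at 448 to 2563 CPM in NC and 67.3 to 393 CPM in HS, with none of 3 tested genes called. A distal convoluted tubule list ran from 534 to 742 CPM in NC cortex, from 1002 to 1664 CPM in HS and from 523 to 2030 CPM in CAL, and 1 of its 3 tested genes rose in HS against NC.

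In the high-salt cortex 1 member fell and none rose. The member that fell was Acads, the short-chain acyl-CoA dehydrogenase, which runs the first step of the spiral on the shortest chains. Among all cortex genes tested 11.0% changed between HS and NC, 7.35% higher and 3.69% lower, so 1 of 25 is no more than the background share. The members' median change was 0.13, and that of all 7524 genes was -0.01. The members' median was 0.043 without HS replicate 4 and 0.26 without HS replicate 2.

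Acads stood at 177, 194, 196, 215 and 247 CPM in NC replicates 1 to 5. The HS replicates 1 to 4 had 131, 108, 119 and 134 CPM. CAL ran from 127 to 187 CPM with a median of 157 CPM. All 4 HS libraries lay below all 5 NC libraries, and the CAL libraries lay between, overlapping both. The change in HS was -0.73 on the log2 scale (SE 0.15), with an edgeR adjusted p of 0.00449. With 1 cortex library left out at a time the change lay between -0.78 and -0.66, and it passed each time. Against HS, Acads in CAL differed by 0.34 (95% interval 0.04 to 0.65, edgeR adjusted p = 0.254), and against NC by -0.39 (-0.65 to -0.13, edgeR adjusted p = 0.235). Erythrocyte genes moved in the same order of groups and distal convoluted tubule genes in the opposite order between HS and NC, and their part in the Acads difference was not tested.

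The other acyl-CoA dehydrogenases act on longer chains, and none of the 3 changed. Acadm, the medium-chain enzyme, had 537, 703, 591, 631 and 627 CPM in NC and 782, 719, 680 and 820 CPM in HS. CAL ran from 590 to 720 CPM with a median of 664 CPM. HS replicates 1, 2 and 4 lay above every NC library and HS replicate 3 lay within the NC range, so the groups overlapped. The difference was 0.28 (SE 0.11) with an edgeR adjusted p of 0.102. Acadl, the long-chain enzyme, was at 0.25 (SE 0.14), and Acadvl, the very-long-chain enzyme of the inner membrane, at -0.32 (SE 0.15), with edgeR adjusted p of 0.237 and 0.149.

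**Figure D1:**
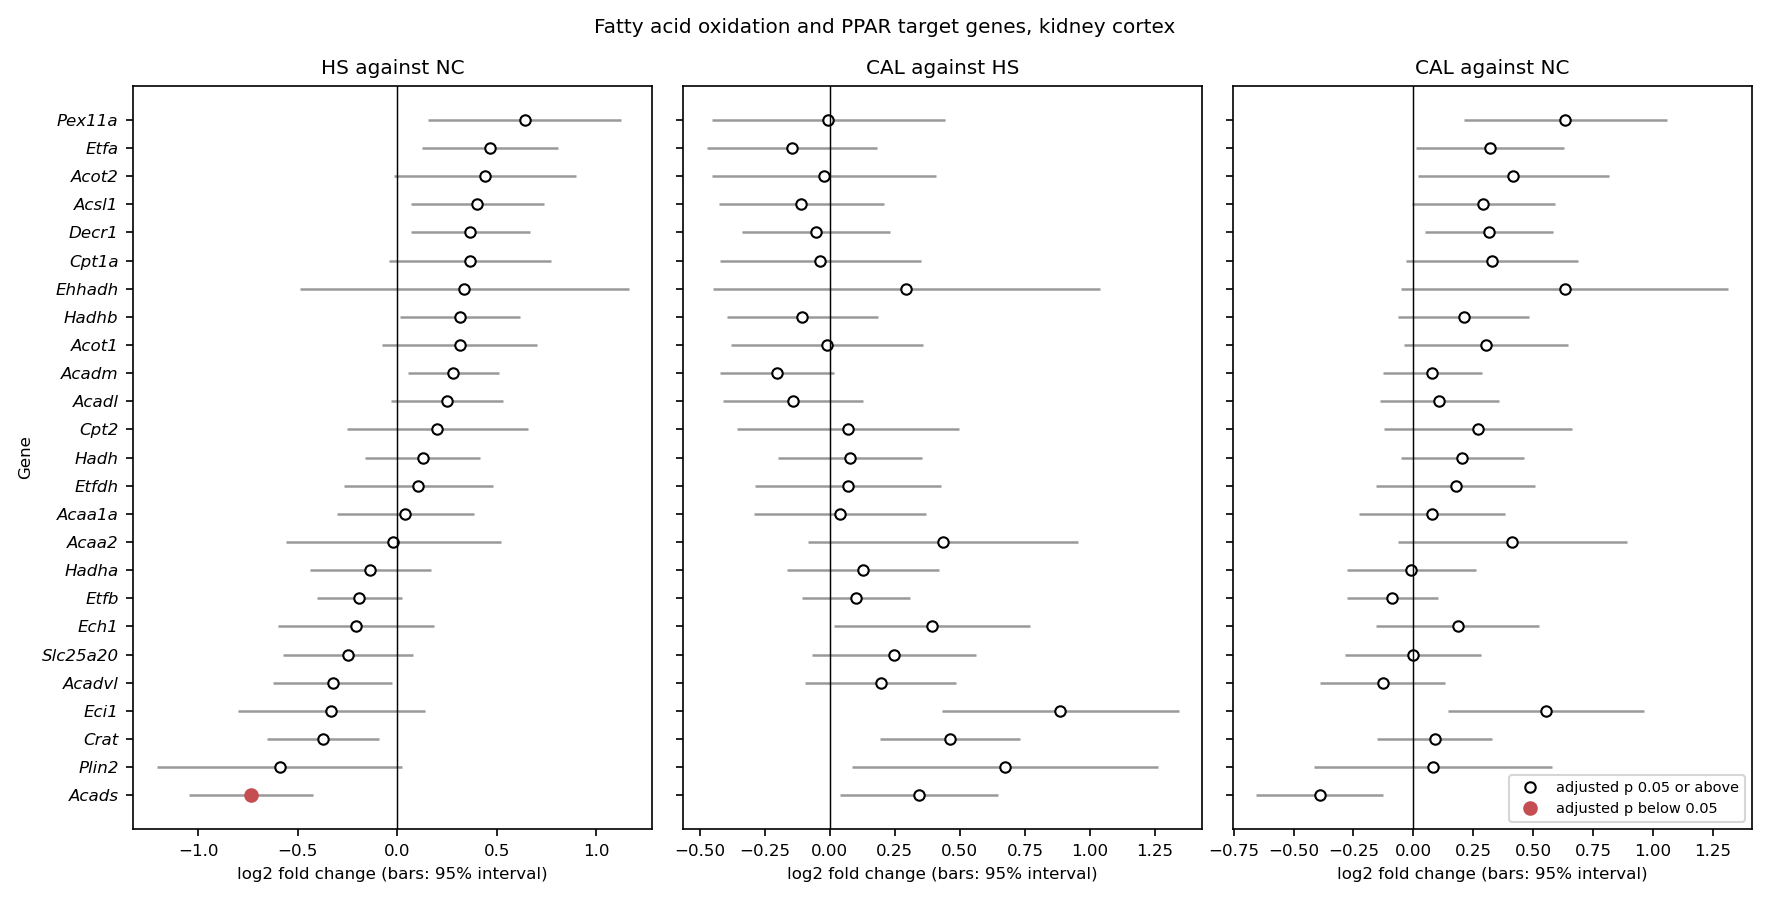
Log2 fold changes of the 25 members tested in the kidney cortex for HS against NC, CAL against HS and CAL against NC, with bars for the 95% interval of the quasi-likelihood fit. Filled points have an adjusted p under 0.05, and the only one is Acads in HS against NC at -0.73.

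Because Acads and Acadm lay on opposite sides of 0, their log2 ratio was compared within libraries, a measure chosen after the values were seen. The ratio removes the depth of the library. It was -1.59 ± 0.18 in NC, -2.60 ± 0.09 in HS and -2.08 ± 0.23 in CAL (SD, n = 5, 4 and 6). HS lay below NC and below CAL without overlap, with a difference of -1.01 for HS minus NC and of 0.52 for CAL minus HS. Both exact permutation p-values, 0.0159 and 0.00952 (two-sided), were the smallest that these group sizes allow, and both came to 0.0571 when adjusted over the 18 ratio tests run, so neither passed. In the colon the same ratio was -0.43 ± 0.17 in NC, -0.49 ± 1.45 in HS and -0.23 ± 0.37 in CAL (SD, n = 5, 5 and 6), where HS replicate 3 lay at -3.03. Without that library the difference turned from -0.06 to 0.58 for HS against NC (adjusted p = 0.0952) and from 0.26 to -0.38 for CAL against HS (adjusted p = 0.267), by the exact permutation test.

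The carnitine shuttle showed no change that passed. Cpt1a, the carnitine palmitoyltransferase of the outer membrane and the rate-limiting step of entry, had 96.4, 126, 124, 110 and 110 CPM in NC. The HS libraries had 131, 94.6, 165 and 196 CPM, and CAL ran from 97.1 to 182 CPM with a median of 149 CPM. The HS libraries thus spread over more than the whole NC range, and the difference of 0.37 (SE 0.20) had an edgeR adjusted p of 0.237. Cpt2, which turns the ester back into an acyl-CoA inside, was at 0.20, and Slc25a20, the carnitine-acylcarnitine carrier, at -0.25, with edgeR adjusted p of 0.588 and 0.320.

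Crat, the carnitine acetyltransferase that exports acetyl groups, had the second-smallest p among the members in CAL against HS. Its NC libraries had 220, 226, 232, 235 and 202 CPM. The HS libraries, at 157, 163, 193 and 178 CPM, all lay below them. CAL ran from 183 to 286 CPM with a median of 234 CPM and met HS only through replicate 4. The differences were -0.37 (SE 0.14, edgeR adjusted p = 0.0758) for HS against NC and 0.46 (SE 0.13, edgeR adjusted p = 0.0943) for CAL against HS. CAL against NC gave 0.09, with a 95% interval of -0.15 to 0.33. Crat passed in HS against NC with voom and library weights (adjusted p = 0.0472) and in CAL against HS with DESeq2 (adjusted p = 0.0338).

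The later steps of the spiral are run by the trifunctional protein, whose α and β subunits are Hadha and Hadhb, by Hadh for shorter chains, and by the thiolase Acaa2. None changed in the cortex. Hadhb lay at 0.32 (SE 0.15, edgeR adjusted p = 0.163) and Hadha at -0.13 (SE 0.15, edgeR adjusted p = 0.587) in HS against NC, Hadh at 0.13 and Acaa2 at -0.02. Echs1, the hydratase of this step, could not be followed: 14 of the 15 cortex libraries held 0.850 to 7.06 CPM, and CAL replicate 4 held 47.6 CPM, from 32 counts.

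Hadha and Hadhb lie head to head on rat chromosome 6, with 243 bases between their starts in RefSeq's GRCr8 annotation. The stretch shown is the part of that gap next to Hadhb, chr6:31907558-31907750 on the minus strand, because both subunit genes start from it and 1 protein complex holds both products. Its last base is the one before the start of Hadhb.

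Hadhb-Hadha gap: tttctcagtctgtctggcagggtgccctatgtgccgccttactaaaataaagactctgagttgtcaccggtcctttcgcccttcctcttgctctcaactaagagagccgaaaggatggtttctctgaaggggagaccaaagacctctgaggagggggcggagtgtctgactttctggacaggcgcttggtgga

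The log2 ratio of Hadhb to Hadha, also chosen after the values were seen, was 0.57 ± 0.35 in NC, 1.04 ± 0.03 in HS and 0.83 ± 0.25 in CAL in the cortex (SD, n = 5, 4 and 6). NC replicate 2 lay within the narrow HS range, and the HS difference of 0.48 did not pass (exact two-sided permutation p = 0.0635, adjusted p = 0.190). After the group means were taken out, the levels of both genes correlated with r = 0.35 over the 15 cortex libraries and r = 0.63 over the 16 colon libraries, which share depth and scaling.

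Electron transfer gave the second-smallest p of HS against NC. Etfa and Etfb encode the α and β subunits of the electron transfer flavoprotein, a heterodimer, and Etfdh the oxidoreductase that passes its electrons to ubiquinone. Etfa had 430, 539, 421, 424 and 437 CPM in NC and 763, 627, 494 and 600 CPM in HS, with CAL from 326 to 666 CPM and a median of 632 CPM. Only HS replicate 3 lay within the NC range, below NC replicate 2. The difference was 0.46 (SE 0.17) with an edgeR adjusted p of 0.0701. It passed without NC replicate 2 (edgeR adjusted p = 0.0450), which had the highest NC value, without HS replicate 3 (0.0468) and without CAL replicate 6 (0.0211), which had the lowest CAL value.

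Etfb went the other way in each HS library. It had 571, 565, 591, 613 and 582 CPM in NC and 561, 479, 491 and 517 CPM in HS, with no overlap, and CAL ran from 496 to 598 CPM with a median of 550 CPM. The difference of -0.19 (SE 0.10) did not pass (edgeR adjusted p = 0.243). The log2 ratio of Etfa to Etfb was -0.38 ± 0.18 in NC, 0.26 ± 0.19 in HS and -0.01 ± 0.45 in CAL (SD, n = 5, 4 and 6). HS exceeded NC by 0.65 without overlap, with an exact two-sided permutation p of 0.0159, the smallest possible here, and an adjusted p of 0.0571. In the colon the ratio was -0.04 ± 0.12 in NC, 0.17 ± 0.86 in HS and 0.51 ± 0.33 in CAL (SD, n = 5, 5 and 6), with HS replicate 4 at -1.31. Without that library HS exceeded NC by 0.58 instead of 0.21, and CAL against HS went from 0.34 to -0.03. For HS against NC the exact permutation test then gave an adjusted p of 0.0476. That value depends on the other ratio tests and on a removal chosen after seeing the data, so it is not read as a pass. Without HS replicate 3, the library high in small-bowel genes, HS exceeded NC by 0.20 (exact permutation test, adjusted p = 0.804). In the colon CAL exceeded NC by 0.55 without overlap (exact two-sided permutation p = 0.00433, adjusted p = 0.0571). Etfdh was at 0.11 in HS against NC cortex (edgeR adjusted p = 0.741).

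**Figure D2:**
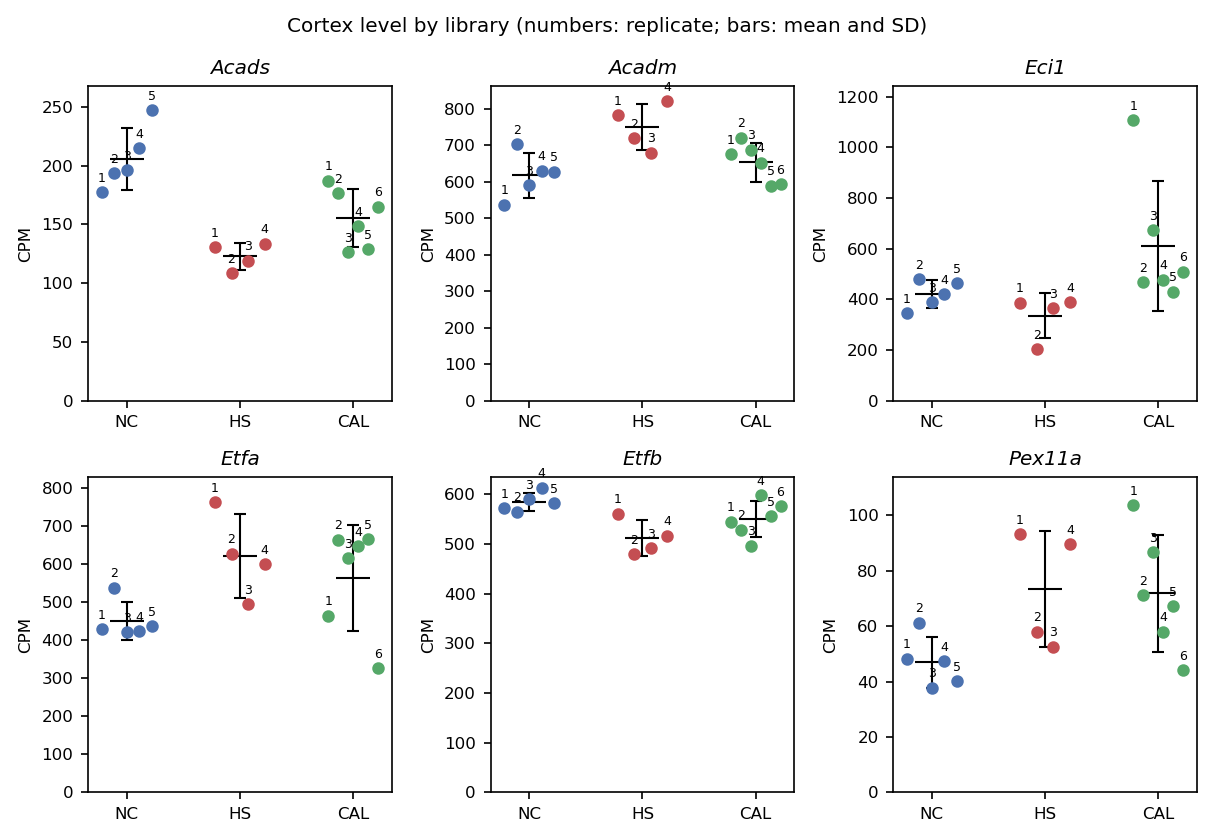
Levels in CPM of 6 members in each cortex library of NC, HS and CAL; numbers are replicates and bars the mean with SD. For Acads the 4 HS libraries sit between 108 and 134 CPM below every NC library, for Etfb they sit below every NC library, and for Eci1 CAL replicate 1 stands at 1107 CPM.

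Unsaturated fatty acids need auxiliary enzymes that move or reduce double bonds, and Eci1, the enoyl-CoA isomerase, came nearest to the threshold in CAL against HS. Among all cortex genes 0.758% changed in that comparison, and no member did. Eci1 had 346, 481, 389, 422 and 465 CPM in NC and 388, 203, 365 and 390 CPM in HS. CAL ran from 431 to 1107 CPM with a median of 494 CPM. Every CAL library lay above every HS library, as for 4.17% of all genes, and Eci1 was the 1 member of 25 with no overlap there.

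The CAL difference for Eci1 was 0.89 (95% interval 0.43 to 1.34) with an edgeR adjusted p of 0.0520. It passed with DESeq2 (adjusted p = 0.0187), with no filter on low counts (edgeR adjusted p = 5.53e-04) and with a filter of 1 CPM (0.0378). It passed also without CAL replicate 2 (0.0491) or 5 (0.0368). The difference was 0.62 without CAL replicate 1 (edgeR adjusted p = 0.0928) and 0.69 without HS replicate 2 (0.220), the libraries with the highest CAL and the lowest HS value. Over all alternatives run, its adjusted p ranged from 5.53e-04 to 0.220. Decr1, the dienoyl-CoA reductase, was at 0.37 in HS against NC (SE 0.14, edgeR adjusted p = 0.10). Ech1, a dienoyl-CoA isomerase, was at 0.39 in CAL against HS (SE 0.18, edgeR adjusted p = 0.287).

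No peroxisomal member passed the threshold either. Pex11a, which drives the division of peroxisomes and is a known PPARα target, had 48.2, 61.2, 37.8, 47.3 and 40.0 CPM in NC. The HS libraries had 93.1, 58.0, 52.6 and 89.5 CPM, and CAL ran from 44.1 to 104 CPM with a median of 69.1 CPM. Replicates 1 and 4 of HS were high and the other two lay within the NC range. The differences were 0.64 (SE 0.24, edgeR adjusted p = 0.0775) for HS against NC and 0.63 (SE 0.21, edgeR adjusted p = 0.235) for CAL against NC. The first passed without NC replicate 2 (0.0432) or CAL replicate 6 (0.0499). Ehhadh, the bifunctional enzyme, had few counts and was at 0.34 (95% interval -0.49 to 1.16), and the thiolase Acaa1a was at 0.04. Acaa1a has a close paralog, Acaa1b, and reads may have been split between them.

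PPARα itself was near the limit of counting. Ppara had 7.09, 8.50, 9.0, 1.97 and 11.7 CPM in NC cortex and 13.3, 4.58, 7.01 and 4.77 CPM in HS, with CAL from 5.76 to 16.4 CPM and a median of 12.8 CPM. In the colon the NC libraries had 1.84, 3.14, 5.52, 0 and 1.67 CPM. HS had 0 in 4 libraries and 3.31 CPM in replicate 5, and CAL ran from 0 to 6.22 CPM with a median of 0.782 CPM. A count of 0 allows 3.27 to 11.2 CPM in the colon libraries, taking 3 counts as the limit and counting error only. Ppara passed the filter in neither tissue, so no test of it is given. At these counts only a large difference between groups could have been seen.

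Among the remaining targets, Plin2, which coats lipid droplets, had 83.6, 80.7, 73.8, 92.6 and 102 CPM in NC. HS had 55.4, 39.7, 52.6 and 76.4 CPM, and CAL ran from 55 to 176 CPM with a median of 71.2 CPM. HS replicate 4 alone reached the NC range. The differences were -0.59 (SE 0.30, edgeR adjusted p = 0.204) for HS against NC and 0.67 (SE 0.29, edgeR adjusted p = 0.249) for CAL against HS, and the second was 0.23 (edgeR adjusted p = 0.650) without CAL replicate 1. Acsl1, which joins fatty acids to coenzyme A, was at 0.40 in HS against NC (SE 0.16, edgeR adjusted p = 0.107). The thioesterases Acot1 and Acot2, which undo that step, were at 0.31 and 0.44 (edgeR adjusted p = 0.290 and 0.20). Pdk4, a mitochondrial kinase that restrains the oxidation of pyruvate, held 0 to 9.86 CPM in NC, 2.22 to 22.7 CPM in HS and 1.77 to 29.0 CPM in CAL.

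By counts, 15 of the 25 members lay above 0 in HS against NC and 10 below. At an unadjusted p under 0.05 there were 9 members and 27.3% of all genes, and HS and NC did not overlap for 3 members, Acads, Crat and Etfb, and for 13.1% of all genes. In CAL against HS 15 lay above 0 with a median of 0.07, and without HS replicate 2 it was 12 with a median of -0.0086. The 5 members with an unadjusted p under 0.05 were all higher in CAL, where 16.2% of all genes reached that p and 7.22% were higher with it. At an adjusted p under 0.05, 0.266% of all genes rose. In CAL against NC no member changed, and the background was 0%, since no cortex gene passed. CAL and NC did not overlap for 1.06% of all genes and for no member. There 20 of 25 members lay above 0 with a median of 0.21, where the median of all genes was close to 0. The count was 18 of 25 with a median of 0.12 without CAL replicate 1. An unadjusted p under 0.05 was reached by 6 members, 5 of them higher, and by 11.9% of all genes, with 6.54% of all genes higher at that p. Of the 24 members that did not change in HS against NC, 21 had a 95% interval within 1 log2 unit of 0 on both sides. The 3 comparisons share libraries, so these counts are not independent of each other.

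Other genes of the pathway, from lists of non-members, are read against the 11.0% of all cortex genes that changed in HS against NC, 7.35% higher and 3.69% lower. Of 15 tested genes of mitochondrial oxidation and of the branched-chain and propionate routes, 2 rose and 1 fell. Mmut, the methylmalonyl-CoA mutase, rose from 133 ± 12.5 to 231 ± 39.3 CPM (SD, n = 5 and 4; log2 0.78, SE 0.15, edgeR adjusted p = 0.00285). Hibch, of valine breakdown, rose by 0.75 (edgeR adjusted p = 0.0190), and Ivd, the isovaleryl-CoA dehydrogenase of leucine breakdown, fell by 0.38 (edgeR adjusted p = 0.0221). All 3 act in the breakdown of branched-chain amino acids, and Mmut also in that of odd-chain fatty acids.

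Peroxisomal oxidation had 2 of 11 genes called higher in HS, and uptake and activation had 2 of 16. Hacl1, which cleaves α-oxidation products in the peroxisome, rose from 115 ± 22.7 to 219 ± 38.9 CPM (SD, n = 5 and 4; log2 0.94, SE 0.20, edgeR adjusted p = 0.00512). Crot, the peroxisomal carnitine octanoyltransferase, rose by 0.64 (edgeR adjusted p = 0.00896), while Phyh, the phytanoyl-CoA hydroxylase, was at 0.31 (edgeR adjusted p = 0.0797). The acyl-CoA synthetases Acsl4 and Acsl3 rose by 0.99 and 0.97 (edgeR adjusted p = 0.0144 and 0.0186), and the transporter Slc27a2 was at 0.38 (edgeR adjusted p = 0.101). The medians of these lists were 0.21 and 0.28.

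Among ketone body genes, Oxct1, which starts ketone body use, rose by 0.48 (SE 0.13, edgeR adjusted p = 0.0189), and Bdh1, a dehydrogenase of ketone bodies, was at -0.38 (edgeR adjusted p = 0.241). No gene changed among 6 of lipid droplets and lipolysis, 7 of the PPAR receptors and their partners, and 18 further PPAR targets. The smallest p in each were those of Abhd5 at 0.90, Ppard at -1.26 and Vnn1 at 1.14 (edgeR adjusted p = 0.0675, 0.0590 and 0.0607). Ppard had 18.4 to 27.6 CPM in NC and 0 to 15.5 CPM in HS. In CAL against HS and in CAL against NC no gene of the 7 lists changed.

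Levels of many members went together from library to library within the cortex groups. Over the 15 libraries, with group means taken out, 241 of 300 member pairs correlated above 0, with a median r of 0.29, and the median over pairs of all genes was close to 0. The libraries share depth and scaling, so this is a description. Non-members whose levels followed the members' mean closely were Cyp4a1 (r = 0.86), Cyp4a3 (0.83), Vnn1 (0.82) and Lonp2 (0.80). Spearman's rho for them was 0.76, 0.68, 0.64 and 0.56. Cyp4a1 and Cyp4a3 are fatty acid ω-hydroxylases, Vnn1 is a pantetheinase, and Lonp2 is a protease of peroxisomes. Cyp4a1, Cyp4a3 and Vnn1 stood in the list of further PPAR targets, and Lonp2 in no list.

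CAL replicate 1 and HS replicate 2 lay farthest from the other libraries in the members' mean. CAL replicate 1, the deepest of all with 2265164 counts, had the highest CAL value for 15 of 25 members, where it was highest for 12.8% of all genes. HS replicate 2 had the lowest HS value for 16 of 25, against 21.7% of all genes. Without both, r was 0.70, 0.58, 0.64 and 0.53 for the same 4 genes over 13 libraries, and their ranks among 7499 genes were 6, 50, 19 and 108. The part of depth in the pattern was not tested.

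Cyp4a1 stood at 299 CPM in CAL replicate 1, and the other 5 CAL libraries held 90.1 to 141 CPM. Vnn1 stood at 242 CPM there, with 51.8 to 88.3 CPM in the other CAL libraries. HS replicates 1 and 4 were high for Cyp4a1 (171 and 167 CPM) and for Vnn1 (157 and 178 CPM), and HS replicates 2 and 3 lay at 76.3 and 80.6 CPM and at 48.8 and 45.6 CPM. HS replicates 1 and 4 were also the highest HS libraries for Pex11a and Acsl1. In HS against NC, Cyp4a1 was at 0.53 and Cyp4a3 at -0.01 (edgeR adjusted p = 0.278 and 0.987).

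**Figure D3:**
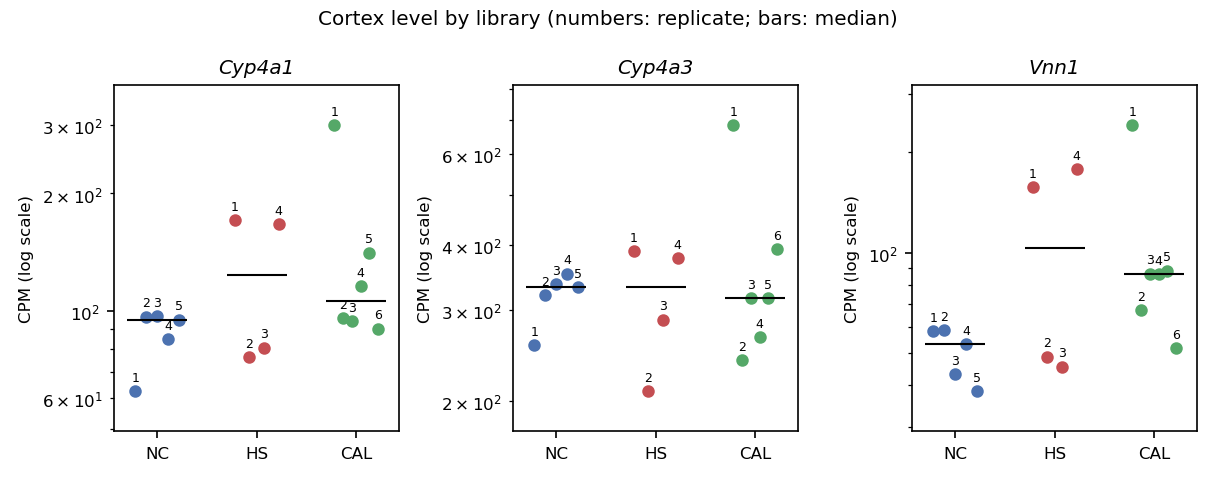
Levels in CPM on a log scale of Cyp4a1, Cyp4a3 and Vnn1 in each cortex library of NC, HS and CAL; numbers are replicates and bars the group median. CAL replicate 1 is the highest library for all 3 genes, and HS replicates 1 and 4 lie above HS replicates 2 and 3.

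In the colon no member changed in any comparison. The background was 0% for HS against NC and for CAL against NC, and 0.0139%, a single gene, for CAL against HS. In HS against NC 18 of 23 members lay below 0, with a median of -0.23, where 45.8% of all genes lay below 0 with a median of 0.04. HS and NC overlapped for every member tested, and failed to overlap for 1.40% of all genes. An unadjusted p under 0.05 was reached by 3 members and 8.51% of all genes in HS against NC, and by 0 members and 3.85% in CAL against NC. Without HS replicate 3 the count was 17 of 23, without both HS replicates 3 and 4 it was 17 of 23 with a median of -0.34, and without NC replicate 3 it was 16 of 23 with a median of -0.14. NC replicate 3 had the highest NC value for 19 of 23 members, where it was highest for 22% of all genes. The surface colonocyte list ran over 12491 to 18572 CPM in NC, 8019 to 14278 CPM in HS and 10542 to 19679 CPM in CAL, and the erythrocyte list was lower in HS, as given above. The B and plasma cell list ran over 132 to 605 CPM in NC and 127 to 1480 CPM in HS, and the T cell list over 41.1 to 290 CPM and 40.0 to 579 CPM. Their tested genes had median changes of -2.59 for erythrocytes, 1.84 for B and plasma cells and 0.84 for T cells in HS against NC, with none called. The smooth muscle list ran over 2691 to 15451 CPM in NC, 1867 to 23264 CPM in HS and 3111 to 5720 CPM in CAL. Its 7 tested genes had median changes of -0.09 in HS against NC, -0.93 in CAL against HS and -0.99 in CAL against NC, with none called. The part of these lists in the members' values was not tested.

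Acaa2 had the smallest p of HS against NC in the colon. It had 356, 369, 681, 450 and 336 CPM in NC and 402, 263, 113, 281 and 265 CPM in HS, with CAL from 286 to 607 CPM and a median of 316 CPM. HS replicate 1 lay within the NC range and the other 4 below it. The difference was -0.72 (95% interval -1.32 to -0.11, edgeR adjusted p = 0.524), and it was -0.52 without HS replicate 3 and -0.51 without NC replicate 3. In CAL against HS Acaa2 was at 0.46 (SE 0.28, edgeR adjusted p = 0.593), and at 0.27 without HS replicate 3.

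Acsl1 went the other way. The NC libraries had 40.6, 50.3, 52.4, 46.1 and 35.1 CPM and the HS libraries 59.0, 78.5, 130, 74.5 and 43.1 CPM, while CAL ran from 19.3 to 74.8 CPM with a median of 36.2 CPM. The 130 CPM of HS replicate 3 was the highest value, and HS replicate 5 lay within the NC range. The differences were 0.78 (95% interval 0.09 to 1.46, edgeR adjusted p = 0.542) for HS against NC and -0.88 (-1.54 to -0.22, edgeR adjusted p = 0.345) for CAL against HS. Without HS replicate 3 they were 0.51 and -0.61.

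Hadhb had 380, 438, 654, 362 and 397 CPM in NC colon and 371, 294, 337, 402 and 265 CPM in HS, with CAL from 324 to 396 CPM and a median of 360 CPM. NC replicate 3 was far above the rest, and the difference of -0.41 (SE 0.20, edgeR adjusted p = 0.580) was -0.24 without it and -0.42 without HS replicate 3. Etfb had 434, 423, 543, 403 and 402 CPM in NC, 439, 350, 357, 348 and 209 CPM in HS, and 225 to 513 CPM in CAL with a median of 375 CPM. Its difference was -0.37 (SE 0.23, edgeR adjusted p = 0.701), with HS replicate 1 inside the NC range and the other 4 below it, and -0.38 without HS replicate 3.

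Acadm and Cpt1a overlapped between all groups of the colon. Acadm had 308, 284, 356, 322 and 212 CPM in NC and 252, 180, 417, 258 and 212 CPM in HS, with CAL from 227 to 315 CPM and a median of 244 CPM. Cpt1a had 101, 124, 204, 138 and 122 CPM in NC and 155, 105, 66.3, 179 and 149 CPM in HS, with CAL from 87.1 to 179 CPM and a median of 144 CPM. They were at -0.17 and -0.06 in HS against NC (95% intervals -0.62 to 0.29 and -0.61 to 0.49). Without HS replicate 3 they were at -0.39 and 0.10.

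Crat and Acaa1a complete the smallest p of CAL against HS in the colon. Crat had 70.1, 75.4, 182, 103 and 71.8 CPM in NC, 52.2, 67.3, 102, 86.9 and 86.1 CPM in HS and 67.3 to 135 CPM in CAL, with a CAL median of 93.9 CPM. Acaa1a had 71.9, 48.7, 35.9, 71.1 and 46.8 CPM in NC, 60.2, 67.3, 55.3, 89.4 and 46.4 CPM in HS and 28.2 to 65.4 CPM in CAL, with a CAL median of 54.9 CPM. Both overlapped between all groups, at 0.36 and -0.34 in CAL against HS (edgeR adjusted p = 0.702 and 0.709), and at 0.48 and -0.38 without HS replicate 3.

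**Figure D4:**
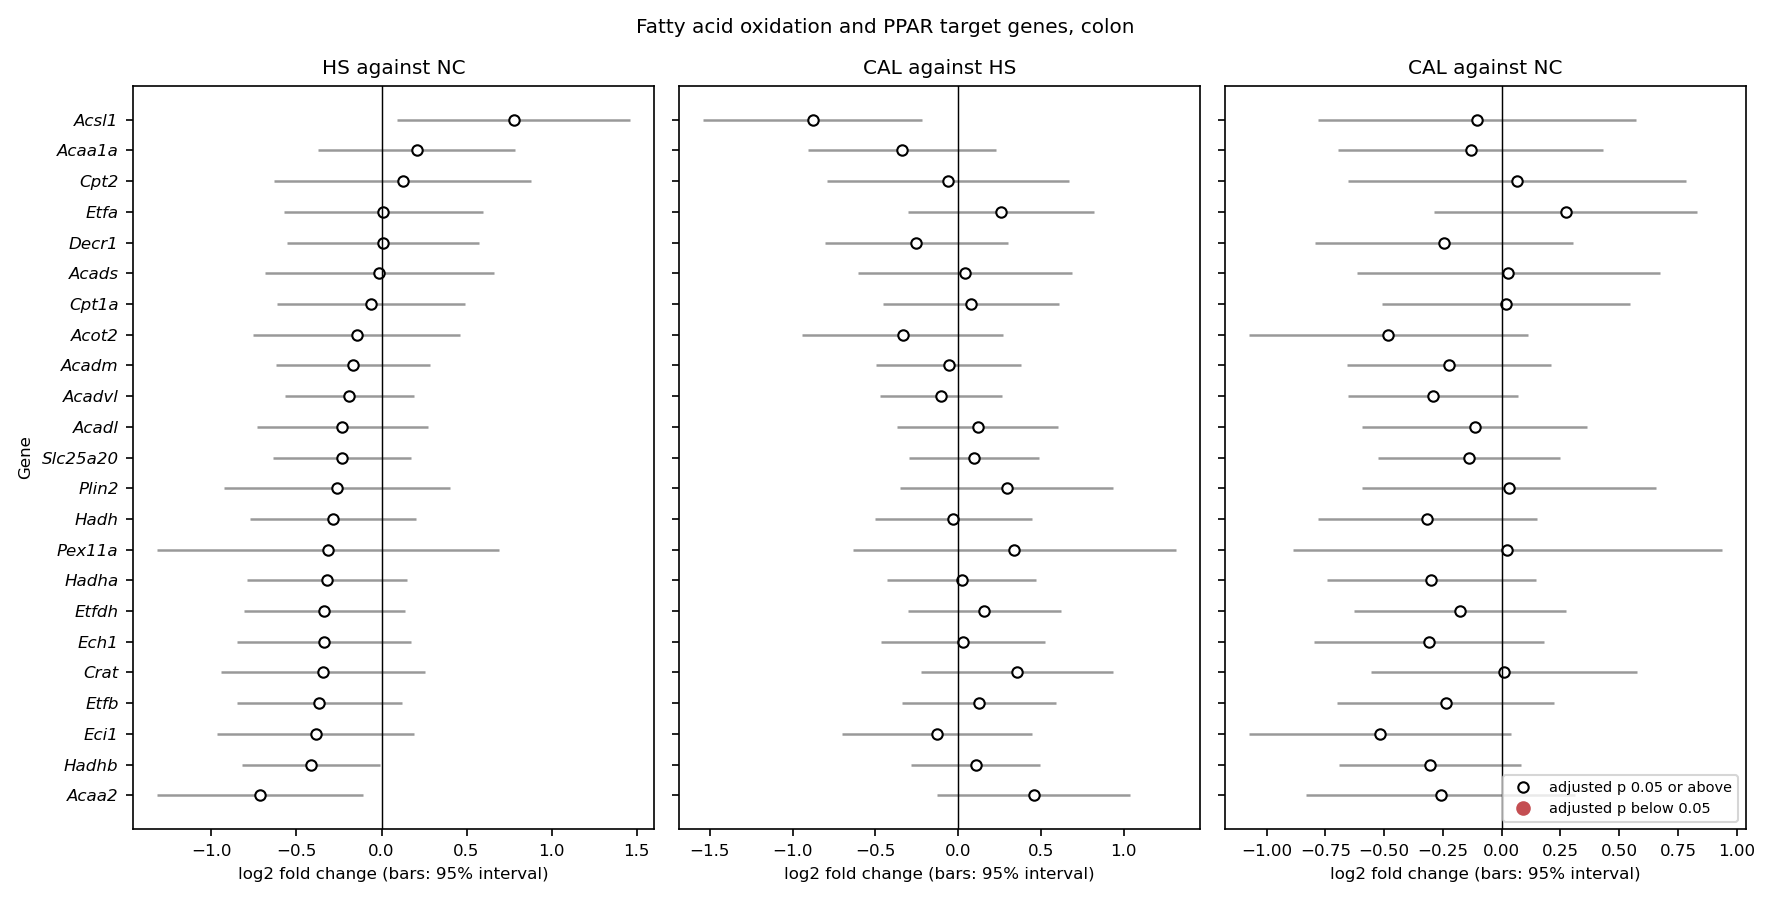
Log2 fold changes of the 23 members tested in the colon for HS against NC, CAL against HS and CAL against NC, with bars for the 95% interval. No point passes, 18 of the 23 lie below 0 in HS against NC, and Acsl1 is the highest there at 0.78.

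Fabp1 encodes the fatty acid-binding protein of liver and small-bowel enterocytes and is a textbook PPARα target. In the colon it had 11.1, 20.4, 124, 9.21 and 15 CPM in NC, and 7.72 to 12.8 CPM in CAL with a median of 9.53 CPM. HS had 12.5, 20.2, 5855, 4.97 and 0 CPM, so replicate 3, with 2118 counts, held nearly all. That is the library with 17893 CPM of small-bowel enterocyte genes. The proximal tubule list summed to 1476 CPM there, against 184 CPM or less in the other colon libraries, and the hepatocyte list to 2688 CPM, against 785 CPM or less. With no filter on low counts Fabp1 alone among the members was called in the colon, higher in HS than NC and lower in CAL than HS. In the cortex it had 0 to 2.72 CPM.

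The stretch before the start of Fabp1 is shown because it was the only member window with a match to a direct repeat with a spacer of 1 base, the form of site bound by PPARα with its partner RXR. The motif searched was AGGNCA, any 1 base and AGGNCA again, on both strands in RefSeq windows of 250 bases before and 50 after each start in GRCr8. It was found in 1 of the 27 windows of 26 members and in 0.415% of 33469 windows in all. The stricter form with AGGTCA as both repeats was in no member window and in 0.0538% of all. Capitals mark the match, from 77 to 65 bases before the start, which lies on the reverse strand as printed. The stretch is chr4:104749090-104749339 on the plus strand.

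Fabp1: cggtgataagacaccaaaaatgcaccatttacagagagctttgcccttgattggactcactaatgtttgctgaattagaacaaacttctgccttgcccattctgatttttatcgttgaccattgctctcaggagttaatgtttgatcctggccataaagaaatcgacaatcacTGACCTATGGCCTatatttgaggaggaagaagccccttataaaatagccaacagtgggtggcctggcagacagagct

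No gene of the pathway lists changed in the colon. The smallest p of HS against NC were those of Fabp2, the intestinal fatty acid-binding protein and itself one of the small-bowel markers high in HS replicate 3, at 3.48 (edgeR adjusted p = 0.438), of the carnitine importer Slc22a5 at -1.07 (0.449) and of Slc16a1, a carrier of lactate, ketone bodies and short-chain acids, at -0.98 (0.449). Of the colon member pairs 164 of 253 correlated above 0, with a median r of 0.13 over 16 libraries. The difference from the cortex was not tested. The non-members nearest to the members' mean were Ece1 (r = 0.84), Slc37a1 (0.80), Spint2 (0.78), Laptm4b (0.78) and Vps53 (0.77), of which none stood in a pathway list.

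HS and CAL effects were compared between tissues in 1 fit over the genes that passed the filter in both. No member differed in the HS effect, where 0.250% of genes did, or in the CAL effect against HS, where none of 5992 did. Acads had a colon effect of HS 0.76 above its cortex effect (95% interval 0.00 to 1.51, edgeR adjusted p = 0.320). Hadhb was 0.70 below (-1.20 to -0.20, edgeR adjusted p = 0.165). For CAL against HS, Eci1 in the colon was 1.01 below the cortex (-1.77 to -0.25, edgeR adjusted p = 0.335). Acads in the colon had 234, 193, 243, 226 and 192 CPM in NC and 271, 227, 49.8, 348 and 176 CPM in HS, with replicates 3 and 4 at the ends. Without colon HS replicate 3 the Acads difference was 1.0 (edgeR adjusted p = 0.0909), that of Hadhb -0.70 and that of Eci1 -1.09, and without both replicates that of Acads was 0.82 (edgeR adjusted p = 0.271).

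Control colon held less of many members than control cortex. Between NC colon and NC cortex 12 of 23 members were lower and none higher, where 52.5% of 5992 genes differed, 25.2% lower and 27.3% higher. The members' median difference was -0.56, and that of all genes 0.04. On the scale of the joint fit, Eci1 was at 97.8 ± 29.4 CPM in colon and 517 ± 70.1 CPM in cortex (SD, n = 5 each; log2 -2.42, SE 0.26, edgeR adjusted p = 4.84e-10). Acaa1a was at -2.39 and Acsl1 at -2.14 (edgeR adjusted p = 1.66e-11 and 3.86e-09). Decr1 (-1.51), Pex11a (-1.40), Crat (-1.30), Acadvl (-1.22), Acadm (-1.18), Acot2 (-1.02), Etfdh (-0.86), Hadh (-0.82) and Etfb (-0.53) followed. No NC colon library reached the NC cortex range for any of the 12. These were picked by the test on the same values, and the share of all genes without overlap was not counted.

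The other 11 members were not called. Of these, Plin2 also did not overlap, at 50.6 to 83.8 CPM in colon and 91.4 to 125 CPM in cortex. Its difference was -0.56 (edgeR adjusted p = 0.111). Cpt2, at 62.6 ± 9.1 CPM in colon and 82.5 ± 9.5 CPM in cortex (SD, n = 5 each), overlapped. Acads was at 247 ± 27.5 CPM in colon and 253 ± 32.7 CPM in cortex (SD, n = 5 each), a difference of -0.04 with a 95% interval of -0.54 to 0.47. Cpt1a, at 156 ± 43.6 and 139 ± 15.8 CPM, was at 0.15 (-0.33 to 0.63), and Ech1 at 0.32 (-0.13 to 0.77). Acaa2 was at 0.00 (-0.59 to 0.58), Hadhb at -0.17, Slc25a20 at -0.19, Etfa at -0.20 and Hadha at -0.29. Acadl (-0.40, edgeR adjusted p = 0.0750) passed with DESeq2 (0.0497) and with voom and library weights (0.0173).

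Acot1 had 35 to 313 counts in every cortex library and 0 to 4 counts in the colon libraries, so it was tested in the cortex only. Acot2 lies 14455 bases from Acot1 on chromosome 6 in GRCr8 and was counted in both tissues. The genes are near-identical copies, and how reads that fit both were counted is not given in the sources used here.

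**Figure D5:**
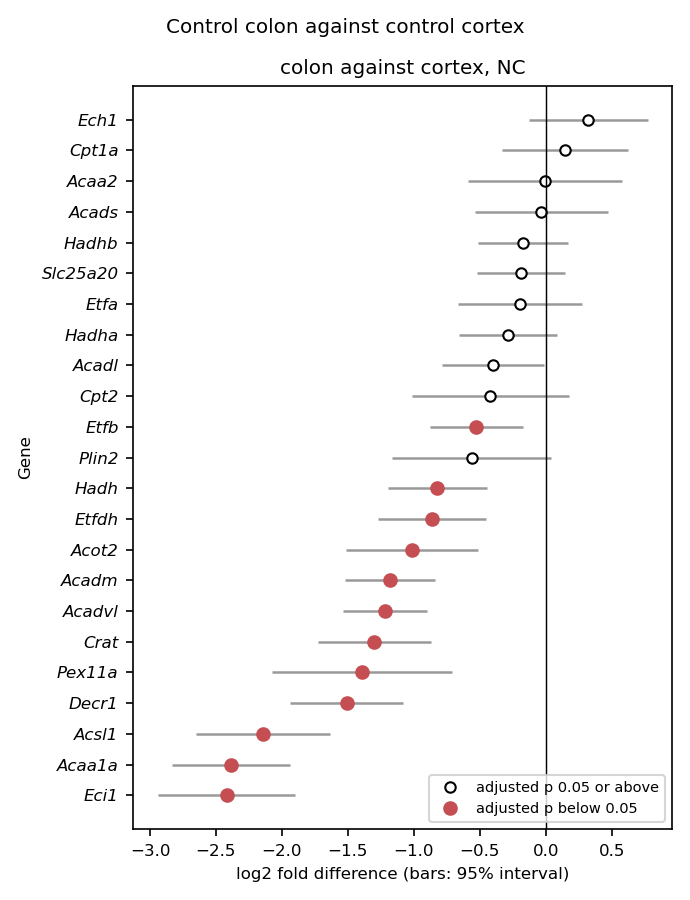
Log2 difference of NC colon minus NC cortex for the 23 members tested in both tissues, with bars for the 95% interval; filled points have an adjusted p under 0.05. The 12 filled points run from -2.42 for Eci1 to -0.53 for Etfb, and Acads lies at -0.04.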

How the data were processed

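RNA was measured in 31 rat libraries, 15 of kidney cortex and 16 of colon. The authors deposited raw read counts per gene, whole numbers that were not normalized. Per the submitters' processing notes, the tools were FastQC 0.11.9, Trimmomatic 0.39, HISAT2 2.1.0 and featureCounts 1.6.5, with the build Rnor_6.0. The annotation and the strand setting are not given in the sources used here, so overlapping and antisense genes cannot be told apart.

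Each tissue was fitted with edgeR 4.0.16 (R 4.3.3; quasi-likelihood F-test, TMM scaling, filterByExpr with a minimum count of 10 and total of 15) over its 3 groups, and both tissues together in a fit of 6 groups. P-values were adjusted by Benjamini-Hochberg over all genes tested, with a threshold of 0.05, and 95% intervals come from the same fit. Alternatives used DESeq2 1.42.0 and voom from limma 3.58.1. Log2 ratios were taken on counts plus 0.5 and compared with exact permutation tests in SciPy 1.17.1. The script was tested on simulated counts.

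The members, the pathway lists and the markers were chosen with earlier results of these data known. The ratios were chosen after the values were seen. Values per library are given for members called in a tissue, otherwise for the 4 members with the smallest p in HS against NC or CAL against HS, and for Ppara, Cpt1a and Acadm. Other lists are given by counts and up to 3 genes each, and the non-members by the 5 most alike. Some of the genes so chosen are not reported here. Etfb in the cortex falls outside this rule and was added after its values were seen, as the partner of Etfa. Sequences are from RefSeq, build GRCr8, and no coordinate of Rnor_6.0 is used. No 2 libraries of a group held identical counts.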

Additional observations from a re-analysis of the deposited data

Results flagged for a closer look

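A library stood far from the rest of its group, by Dixon's criterion at 95%, in 20 of the 152 group values tested. The criterion's rate of 1 in 20 holds for independent, normally distributed values. These CPM values come from shared libraries and were not shown to be normal, so no excess over that rate is claimed. CAL replicate 1 of the cortex was the high library for 5 of them, with Eci1 at 1107 CPM, Decr1 at 407 CPM, Slc25a20 at 220 CPM, Plin2 at 176 CPM and Pdk4 at 29.0 CPM. It is also the deepest library and holds the highest Cyp4a1 and Vnn1 levels of the cortex. NC replicate 3 of the colon was the high library for 4, with Hadhb at 654 CPM, Etfb at 543 CPM, Slc25a20 at 196 CPM and Fabp1 at 124 CPM.

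Fabp1 was high in HS replicate 3 of the colon, at 5855 CPM. Plin2 was high in HS replicate 4 of the colon, at 96.8 CPM. In the CAL colon, Acadm at 315 CPM and Acaa2 at 607 CPM were high in replicate 5, and Slc25a20 at 194 CPM and Pex11a at 43.8 CPM in replicate 4. In the cortex, Etfa was high in NC replicate 2 at 539 CPM, Cpt2 in HS replicate 4 at 99.1 CPM and Echs1 in CAL replicate 4 at 47.6 CPM. Eci1 was low in HS replicate 2 at 203 CPM, and Acsl1 in NC replicate 4 at 144 CPM.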

How the results depend on the processing

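Acads passed in HS against NC in the cortex under every alternative run, with changes from -0.85 (libraries thinned to the shallowest) to -0.66 and adjusted p from 7.75e-04 (DESeq2) to 0.0270 (without HS replicate 2). The number of members called there was 3 with the compared groups fitted alone, 4 with voom and library weights, and 1 to 3 with 1 library left out. The other members called were Etfa and Pex11a, also without NC replicate 2 or CAL replicate 6, Acadm, Crat and Etfa with voom, Etfa without HS replicate 3, and Acsl1 without HS replicate 2. In CAL against HS the cortex had 2 members called with DESeq2 (Crat, Eci1), 1 with no filter, 1 with a filter of 1 CPM in at least 4 libraries, and 0 to 1 with 1 library left out. With no filter, 1 member (Fabp1) was called in the colon in HS against NC and 1 in CAL against HS. Between NC colon and NC cortex 11 to 13 members were called with 1 library left out. The log2 ratio of Etfa to Etfb differed in CAL against NC cortex by 0.31 to 0.54 with 1 library left out, and in HS against NC colon by 0.039 to 0.58. The exact permutation p, adjusted over the 18 ratio tests, was 0.0476 without cortex CAL replicate 6 (0.54) and 0.0476 without colon HS replicate 4 (0.58). In each case only the p of that comparison was recomputed. The adjusted value therefore depends on the other ratio tests and is not read as a pass. Leaving libraries out of the ratios was chosen after seeing the data. The cause of these changes was not tested.

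Whether the replicate numbers pair libraries is not given in the sources used here. Correlations of same-numbered libraries ran from -0.228 to 0.245, and in no comparison were all above 0.1. Between cortex and colon they ran from 0.0039 to 0.12 in NC, -0.042 to 0.13 in HS and 0.0017 to 0.24 in CAL. These values do not settle whether cortex and colon libraries share animals. With the replicate number as a block, 2 members were called in HS against NC cortex (Acads and Etfa). A block by number within each tissue gives no value for NC colon against NC cortex, since it is collinear with the tissue. A block by numbers shared between the tissues, added after seeing the data, called 12 members there, with a median of -0.58. Low counts limit Ppara, Pdk4, Echs1 and, in the colon, Acot1 and Ehhadh. The cause of the low counts of each gene was not tested. In HS against NC the 95% intervals of the colon reached a median of 0.57 to each side of the estimate, and those of the cortex 0.34.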
